A study of Mus musculus with 6 samples.

Results

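The genes described here are Ptprd, its closest relatives among the receptor tyrosine phosphatases, and genes for proteins that bind them. They were taken by gene name from a list, and all 10 of 10 names matched a row among the 25904 genes of the count table. By role they comprise the 3 LAR-type phosphatases Ptprd, Ptprf and Ptprs, the liprins Ppfia1, Ppfibp1 and Ppfibp2, the extracellular partners Il1rap, Sdc2 and Sdc4, and the exchange factor Trio. Messenger RNA was sequenced from livers of C57BL/6J mice, with 3 libraries from Ptprd+/+ animals (WT) and 3 from Ptprd+/- animals (Het), and no treatment is given in the labels. The sources used here do not say how the Ptprd allele was altered, or how old and of which sex the mice were. Whether each library came from a separate animal is not spelled out, so p-values set the genotype difference against the spread between these libraries. The terms WT livers and Het livers below mean the libraries of each genotype. The question put to the data was whether any relative or partner of Ptprd stood at a different level when 1 copy of the gene was lost.

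LAR-type phosphatases are cell surface receptors with immunoglobulin and fibronectin repeats outside the cell and a pair of phosphatase domains inside, of which the membrane-proximal one carries the main catalytic activity. They remove phosphate from tyrosines of other proteins, and are best known from synapses, where they bind partner proteins across the cleft and heparan sulfate chains of proteoglycans. Inside the cell they bind liprins, which are scaffold proteins, and Trio, a guanine nucleotide exchange factor. In liver, LAR itself (Ptprf) is known as a phosphatase that acts on the insulin receptor, and the product of Ptprd has been described as a phosphatase of STAT3.

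The 3 phosphatase genes differ enough in coding sequence for most reads to be told apart. Over the longest coding sequence of each in GENCODE M21 (GRCm38, the assembly also called mm10), Ptprd matched Ptprf at 67.0% and Ptprs at 66.6% of aligned bases. No stretch of 30 bases of the Ptprd coding sequence occurred in that of Ptprf or Ptprs, and the longest shared runs were 26 and 21 bases. The 90 bases around the catalytic signature of the membrane-proximal domain, among the most conserved parts of the family, are shown 5′ to 3′ on the coding strand because they let a reader see how far the paralogs differ. Capitals mark bases that differ from Ptprd. The stretch runs from coding base 4621 to 4710 in Ptprd, 4579 to 4668 in Ptprf and 4606 to 4695 in Ptprs, and an intron interrupts it in each gene.
Ptprd: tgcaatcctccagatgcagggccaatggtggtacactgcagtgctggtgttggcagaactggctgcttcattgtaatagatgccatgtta
Ptprf: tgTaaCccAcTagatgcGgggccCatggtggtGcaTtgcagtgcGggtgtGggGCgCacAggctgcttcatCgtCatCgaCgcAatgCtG
Ptprs: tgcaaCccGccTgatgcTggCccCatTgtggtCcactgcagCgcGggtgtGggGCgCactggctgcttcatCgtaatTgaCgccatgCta
Ptprf differed from Ptprd at 21 of these 90 bases and Ptprs at 18, although only 1 encoded residue differed in either case. A read of 30 or more bases that matched 1 of these 3 coding sequences exactly could therefore not match another of them. Other transcripts of the genes were not compared. The longest run shared with Ptprf was gagaaatgtcaccagtactggccagc, at chr4:75954173-75954198 in Ptprd and chr4:118211101-118211126 in Ptprf (both on the minus strand).

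Total counts lay between 37924266 and 72954187 per library, and each of the 10 genes had at least 164 counts in every library and passed the filter on low counts. Levels are given as CPM, the counts of a gene per 1000000 counts of its library, with the library size scaled by TMM. The 8 hepatocyte markers examined were all detected. Their summed level was 127400 to 153000 CPM in WT and 153300 to 184800 CPM in Het, with WT 3 just under the lowest Het library, and its part in the results was not tested. By gene the markers did not move together, with 6 higher and 2 lower in Het and log2 fold changes of -0.479 to 0.464. Skeletal muscle markers did not exceed 0.0651 CPM in sum, and the sums for cholangiocyte, sinusoidal endothelial, stellate, Kupffer and lymphocyte markers overlapped between the genotypes. Sums for adipocyte (19.3 to 35.1 CPM), exocrine pancreas (9.42 to 19.4 CPM) and erythroid markers (99.5 to 269 CPM, highest in WT 3) also overlapped. Their part in the results was not tested. Het 2 and Het 3 stood apart from the other libraries in clock genes, with the clock output gene Dbp at 129 and 122 CPM against 13.5 to 29.6 CPM elsewhere. In whole tissue, fewer cells of a type and less RNA per cell cannot be told apart.

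Ptprd was lower in every Het library. The gene (ENSMUSG00000028399) spans 2270.7 kb at chr4:75941238-78211961 on the minus strand. Its level was 128 CPM in WT 1, 127 CPM in WT 2 and 132 CPM in WT 3, against 54.1 CPM in Het 1, 78.1 CPM in Het 2 and 63.5 CPM in Het 3. The WT libraries lay within a narrow band and the Het libraries were more spread, with Het 1 lowest and Het 2 highest. The WT mean was 129 ± 2.49 CPM and the Het mean 65.2 ± 12.1 CPM (SD, n = 3 each), a log2 fold change of -0.985 with a 95% interval of -1.30 to -0.67. By edgeR's quasi-likelihood test the unadjusted p was 8.51e-05, the rank by p was 3 of 14606 genes tested and the adjusted p was 0.298, while DESeq2 gave an adjusted p of 2.01e-06. Without Het 2 and Het 3 the log2 fold change was -1.25. In the authors' deposited table its log2 fold change, turned to Het over WT, was -0.816, with an adjusted p of 2.74e-06 and the same rank of 3. Every gene name on the opposite strand within Ptprd that has a row in the table had at most 15 counts in a library. The counts are per gene, and they do not separate transcripts of the intact allele from any made by the altered one.

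**Figure D1:**
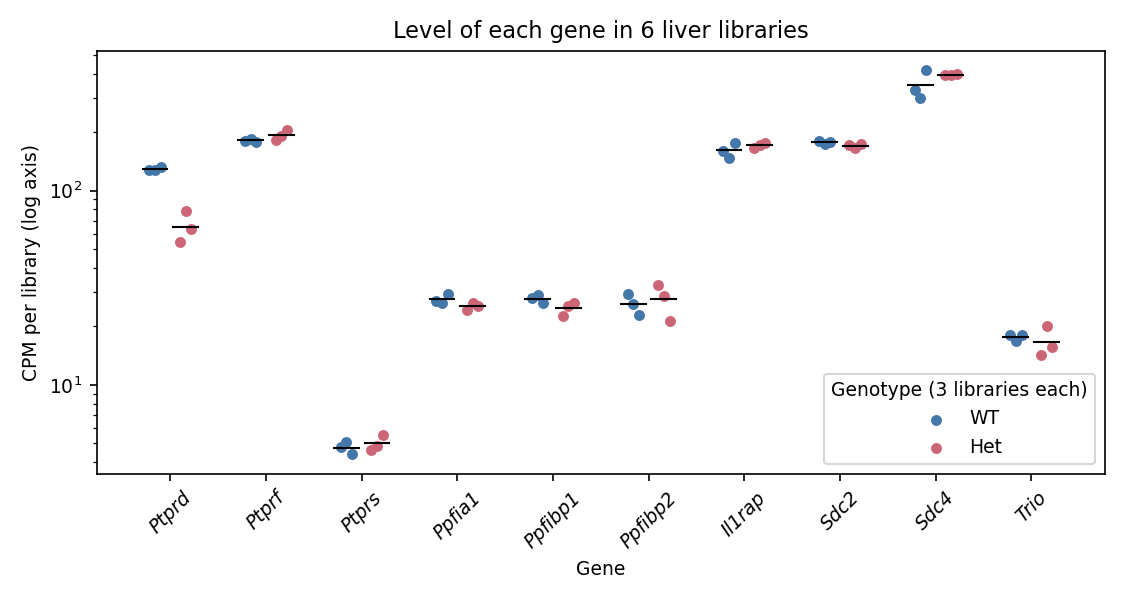
Level of each of the 10 genes in the 3 WT and 3 Het libraries, in CPM on a log axis, with 1 point per library and a black bar at the mean of each genotype. The Het points lie well below the WT points for Ptprd (54.1 to 78.1 against 127 to 132 CPM), while for the other genes the points lie close together or overlap.

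By edgeR's quasi-likelihood test 0 of the 10 genes passed an adjusted p of 0.05, as did 0% of the 14606 genes tested, with 1045 genes (7.15%) at an unadjusted p under 0.05. DESeq2 called 66 genes (0.452%), among them Ptprd and 0 of the other 9 members. Of these 9, 5 had a positive and 4 a negative log2 fold change, 0 had an unadjusted p under 0.05, and their median was 0.08 against -0.004 over all genes tested. The 95% intervals of the 9 together reached from 0.753-fold to 1.41-fold of WT. The groups did not overlap for Ptprd, Ppfia1 and Sdc2, all lower in Het, which is 2 of the 9 others. Of all genes tested, 13.9% had such groups in either direction and 6.72% with Het lower. With 3 against 3 libraries an exact permutation p (two-sided) is at least 0.1, the value these 3 genes had, and the other 7 had exact p values of 0.2 to 0.8.

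**Figure D2:**
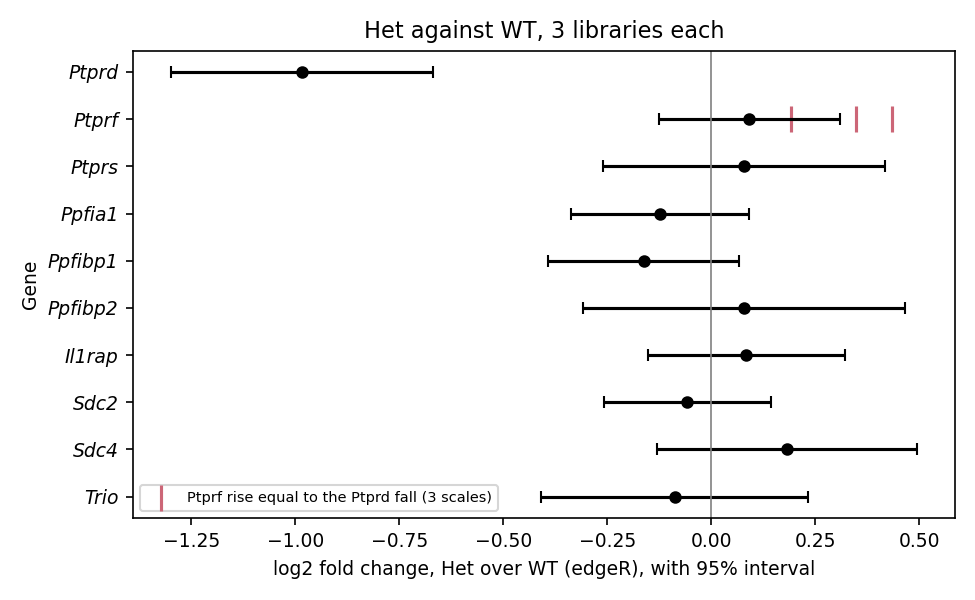
Log2 fold change of Het over WT for each gene by edgeR (points) with its 95% interval (bars), 3 libraries per genotype. The interval of Ptprd lies wholly below 0 and those of the other 9 genes include 0, while red ticks on the Ptprf row mark the rise that would equal the fall of Ptprd on 3 length scales (0.19, 0.35 and 0.44).

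Ptprf, the founding LAR phosphatase, was the most abundant of the 3 relatives. It lies on the same chromosome as Ptprd, at chr4:118208213-118291405, also on the minus strand (ENSMUSG00000033295). Its level was 181 CPM in WT 1, 185 CPM in WT 2 and 177 CPM in WT 3, against 182 CPM in Het 1, 191 CPM in Het 2 and 206 CPM in Het 3. Het 2 and Het 3 lay above the WT range and Het 1 within it. The means were 181 ± 3.995 and 193 ± 12.3 CPM (SD, n = 3 each), with a log2 fold change of 0.09 (95% interval -0.125 to 0.309). The adjusted p was 0.839 by edgeR and 0.941 by DESeq2. Leaving out Het 3 gave a log2 fold change of 0.043, leaving out both Het 2 and Het 3 gave 0.01, and leaving out any other single library gave 0.078 to 0.127. The Het library with the least Ptprd, Het 1, also had the least Ptprf of the 3 Het libraries.

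Ptprs, the third relative, was scarce. The gene (ENSMUSG00000013236, chr17:56412426-56476483, minus strand) stood at 4.82, 5.06 and 4.39 CPM in the WT livers against 4.64, 4.88 and 5.54 CPM for the Het livers, which is 164 to 413 counts per library. The groups overlapped, and the log2 fold change was 0.08 (95% interval -0.261 to 0.418, edgeR adjusted p 0.922). It was 0.000 without Het 3 and 0.026 without WT 3, and -0.035 without both Het 2 and Het 3. Per kb of coding sequence Ptprf exceeded Ptprs by a similar ratio in both genotypes, 38.3 ± 1.97 in WT and 38.7 ± 1.166 in Het (SD, n = 3 each).

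Taken as a sum per kb of coding sequence, LAR-type transcripts were lower in every Het library than in any WT library. The coding lengths of the 3 genes are nearly equal (5736 bases for Ptprd, 5694 for Ptprf and 5721 for Ptprs), but reads were counted over all exons, whose annotated length differs far more (22822, 9148 and 14990 bases), so the weight of each gene in a sum depends on the length used. Per coding kb the sum came to 55.0 in WT 1, 55.6 in WT 2 and 54.9 in WT 3, and to 42.2 in Het 1, 48.0 in Het 2 and 48.2 in Het 3. The WT sums were almost equal, and the Het sums lay below them by an amount that differed between libraries. Mean sums were 55.1 ± 0.376 and 46.1 ± 3.43 CPM per coding kb, so that Het stood at 83.7% of WT, and the share of Ptprd in the sum was 40.8 ± 1.01% in WT and 24.55 ± 3.31% in Het (SD, n = 3 each). Ptprf made up 57.7 ± 0.915% of the sum in WT and 73.55 ± 3.20% in Het, and Ptprs at most 2.01% in any library. Per kb of the transcript with the longest coding sequence the share of Ptprd was 34.9% in WT and 20.2% in Het, and per kb of all annotated exons 21.96% and 11.7%. On the exonic scale the sums overlapped between the genotypes, at 25.7, 26.2 and 25.4 CPM per exonic kb in WT against 22.6, 24.6 and 25.7 for Het, where Het 3 lay above WT 3. These sums are descriptions and were not tested, since Ptprd is part of them.

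**Figure D3:**
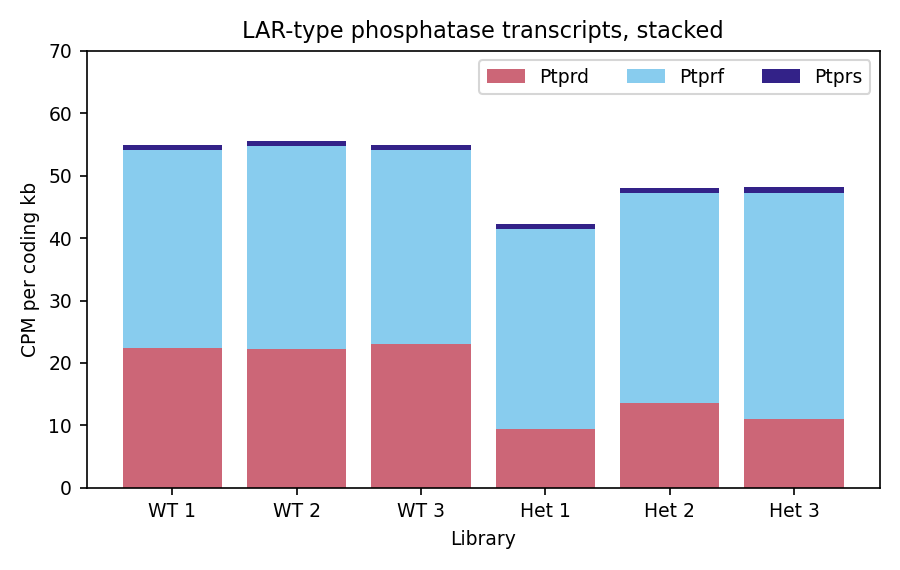
Stacked levels of Ptprd, Ptprf and Ptprs in each library, in CPM per kb of coding sequence, with the axis starting at 0. The WT bars reach 54.9 to 55.6 and the Het bars 42.2 to 48.2, and the light blue part (Ptprf) is similar in height across all 6 libraries.

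The ratio of Ptprd to Ptprf needs no scaling between libraries. Per kb of coding sequence it was 0.704, 0.682 and 0.739 in WT against 0.295, 0.406 and 0.306 for Het, and no Het value came near the WT range. The fall of Ptprd amounted to 63.9 CPM on average and the higher mean of Ptprf to 11.9 CPM, or 18.7% of that fall. This share was 24.1% per kb of the transcript with the longest coding sequence and 46.5% per kb of all annotated exons. Without Het 3, the library with the most Ptprf, the log2 fold change of Ptprf was 0.043 in place of 0.09. For Ptprf to offset the whole fall in CPM, its level would have had to be 1.35-fold that of WT, beyond the upper end of its interval at 1.24-fold. That order held under each of the 14 other settings tried. Per kb of the transcript with the longest coding sequence (9899 bases for Ptprd and 7656 for Ptprf) the rise needed was 1.27-fold, again above the interval. Under 6 of the 14 settings, however, the upper end of the interval passed the rise needed on this transcript scale. Per kb of all annotated exons, where Ptprd counts 22822 bases, the rise needed was 1.141-fold and lay within the interval. These comparisons take the mean fall of Ptprd as given and leave out its own error. For Ptprs a 14.4-fold level would have been needed in CPM.

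The liprins were close in level to each other. Ppfia1 (liprin alpha 1, ENSMUSG00000037519, chr7:144476758-144553729) is the scaffold that binds the membrane-distal phosphatase domain of LAR. It stood at 27.0, 26.5 and 29.3 CPM in the WT livers against 24.2, 26.4 and 25.4 CPM for the Het livers. Het values were below WT values throughout, by as little as 0.11 CPM between WT 2 and Het 2. The log2 fold change was -0.12 (95% interval -0.337 to 0.09, edgeR adjusted p 0.776), and -0.076 without WT 3. Ppfibp1 (liprin beta 1, ENSMUSG00000016487, chr6:146888487-147032025), a partner of the alpha liprins, stood at 28.0, 28.9 and 26.5 CPM in the WT livers against 22.6, 25.4 and 26.5 CPM for the Het livers. Only Het 1 stood clearly below the rest, and the log2 fold change was -0.16 (95% interval -0.392 to 0.07, unadjusted p 0.144, edgeR adjusted p 0.746). Without Het 2 and Het 3 it was -0.296.

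Ppfibp2 (liprin beta 2, ENSMUSG00000036528, chr7:107595207-107748583) varied most within genotypes. It stood at 29.4, 26.0 and 23.0 CPM in the WT livers against 32.7, 28.8 and 21.3 CPM for the Het livers, so that the groups overlapped fully. Its log2 fold change was 0.08 (95% interval -0.307 to 0.465) and its sign turned without WT 3 (-0.003) or without Het 1 (-0.065). It was 0.237 without Het 3 and 0.329 without both Het 2 and Het 3. Its spread within genotypes, an SD of 0.256 on the log2 CPM scale, was above the median of 0.206 over all genes tested, whereas the other 9 members were below it.

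Among the extracellular partners, Il1rap encodes the accessory chain of the interleukin 1 and interleukin 33 receptors, which also binds the product of Ptprd across synapses. The gene (ENSMUSG00000022514, chr16:26581704-26730117, plus strand) stood at 159.5, 147 and 177 CPM in the WT livers against 165, 171 and 176 CPM for the Het livers. The Het values fell inside the WT range, with a log2 fold change of 0.085 (95% interval -0.151 to 0.321, edgeR adjusted p 0.867). It was 0.029 without WT 2, 0.158 without WT 3 and 0.041 without both Het 2 and Het 3. An antisense gene, Gm20319, overlaps its end at chr16:26714446-26755502 and had 65.3 to 86.7 CPM across libraries, with a log2 fold change of 0.095. The strand setting of the counting is not given in the sources used here, so reads in the overlap may have been counted for either gene.

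Sdc2 and Sdc4 are syndecans, membrane proteoglycans whose heparan sulfate chains bind LAR-type receptors, and Sdc4 was the most abundant member. Sdc2 (ENSMUSG00000022261, chr15:32920723-33034935) stood at 179.5, 174 and 178 CPM in the WT livers against 172, 165 and 173 CPM for the Het livers. No Het value reached the WT range, with the nearest pair 173.6 and 173.3 CPM, and the log2 fold change was -0.057 (95% interval -0.258 to 0.144, edgeR adjusted p 0.897), or -0.032 without Het 2. Sdc4 (ENSMUSG00000017009, chr2:164424247-164443887) stood at 328, 299 and 417 CPM in the WT livers against 393, 394 and 399 CPM for the Het livers. The 3 Het libraries were almost equal and lay between WT 1 and WT 3. The log2 fold change was 0.18 (95% interval -0.129 to 0.496, edgeR adjusted p 0.769), and it depended on the WT libraries. Without WT 2 it was 0.09 (unadjusted p 0.558), and without WT 3 it was 0.335 (unadjusted p 0.0267, adjusted p 0.77). Sdc4 was the member with the largest difference apart from Ptprd, 1.136-fold.

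Trio, a large exchange factor that binds the cytoplasmic part of LAR, is encoded at chr15:27730651-28025848 (ENSMUSG00000022263). It stood at 18.04, 16.9 and 18.04 CPM in the WT livers against 14.2, 20.1 and 15.6 CPM for the Het livers. Het 2 lay above the WT range and Het 1 and Het 3 below it. The log2 fold change was -0.088 (95% interval -0.409 to 0.233, edgeR adjusted p 0.9), and it was 0.006 without Het 1, -0.241 without Het 2 and -0.31 without Het 2 and Het 3.

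Per kb of the transcript with the longest coding sequence, the order of levels in WT ran from Sdc4 (142 ± 25.1 CPM per transcript kb, SD, n = 3) through Sdc2 (50.2 ± 0.851), Il1rap (36.3 ± 3.36), Ptprf (23.7 ± 0.522) and Ptprd (13.04 ± 0.252). Below these came the 3 liprins at 5.72 to 6.82, then Trio (1.54 ± 0.0563) and Ptprs (0.694 ± 0.0495). In WT the library ranges of neighbours in this order overlapped only among the liprins, Ppfibp2 with Ppfibp1 and Ppfibp1 with Ppfia1. In Het, Ptprd was at 6.59 ± 1.22 CPM per transcript kb, below Ppfibp2 (7.21 ± 1.51), with which its range overlapped, as it did with that of Ppfia1 (5.25 ± 0.228). The liprins Ppfia1 and Ppfibp1, whose ranges overlapped in both genotypes, changed places, and the other members kept their order. Per kb of all annotated exons Ptprf ranked above Il1rap, so the order of those 2 depends on the length used. The place of Ptprd in Het depends on it too. On the exonic scale Ptprd (2.86 CPM per exonic kb) stayed above Ppfibp2 (2.62) in Het, with overlapping ranges. There Ppfia1 kept its place, and Ppfibp1 and Ppfibp2, whose ranges overlapped in both genotypes, changed places instead.

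The wider set of genes around LAR-type phosphatases held 107 genes in 7 lists, of which 97 were in the table and 83 passed the filter. By edgeR 0 of the 83 passed the adjusted threshold, and 3, all lower in Het, had an unadjusted p under 0.05, against 3.77% of all genes on the lower side. DESeq2 called 0 of them. The groups did not overlap for 2 genes on the higher and 7 on the lower side, against 13.9% of all genes in either direction, and the median log2 fold change was -0.02.

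Of 15 synaptic ligands listed, 8 were in the table and the other 7 were not analysed here, and 3 of the 8 passed the filter. Ntrk3, a neurotrophin receptor that binds Ptprs protein, had 4 to 16 counts per library, and Slitrk2, Slitrk4, Slitrk6 and Lrfn2 had at most 4. Lrfn3, an adhesion protein gene named here with its values known, was the most abundant of the 3 tested. It stood at 11.6, 12.2 and 14.9 CPM in the WT livers against 20.2, 5.75 and 3.15 CPM for the Het livers. Het 1 lay above the WT range and Het 2 and Het 3, the libraries that stood apart in clock genes, below it, with a log2 fold change of -0.43 (edgeR adjusted p 0.882). The other adhesion protein genes tested were low: Lrfn1 averaged 0.292 ± 0.0953 CPM over the WT livers and 0.204 ± 0.0731 CPM over the Het livers, and Lrfn4 had 0.258 ± 0.0307 and 0.311 ± 0.0989 CPM (SD, n = 3 each), with edgeR adjusted p values of 0.823 and 0.864. Without both Het 2 and Het 3 the log2 fold change was -1.049 for Lrfn1 (-0.43 with all libraries) and -0.231 for Lrfn4 (0.308 with all libraries). Of the 15 tested genes among the other liprins and cytoplasmic partners 9 were higher and 6 lower, 0 at an unadjusted p under 0.05 by edgeR or past the adjusted threshold by DESeq2. Mtss1, a membrane-bending protein that binds actin, averaged 145 ± 8.15 CPM over the WT livers and 181 ± 47.98 CPM over the Het livers, and Ppfia4, another alpha liprin, 1.87 ± 0.262 and 1.54 ± 0.368 CPM. Without both Het 2 and Het 3 the log2 fold change of Mtss1 went from 0.32 to -0.194 and that of Ppfia4 from -0.285 to -0.023.

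The proteoglycan list held the gene with the largest difference of the wider set, Gpc6. Of 13 tested, 6 were higher and 7 lower, 1 of them at an unadjusted p under 0.05, against 7.15% of all genes tested. The groups did not overlap for 3 of the 13, all lower in Het. Of all genes tested, 13.9% had such groups in either direction and 6.72% with Het lower. The 3 were Gpc6, Gpc3 and Dcn, the last named with its values known (log2 fold change -0.183, edgeR adjusted p 0.722). Gpc6, which encodes the glypican 6 core protein, stood at 2.08, 1.54 and 3.78 CPM in the WT livers against 0.357, 1.43 and 0.993 CPM for the Het livers. The groups were apart, and the log2 fold change was -1.38 (95% interval -2.496 to -0.261, unadjusted p 0.0215, edgeR adjusted p 0.685). Over all settings it ranged from -2.77 without Het 2 and Het 3 to -0.944 without WT 3. Gpc3, encoding glypican 3, stood at 1.22, 1.06 and 2.41 CPM in the WT livers against 0.988, 0.511 and 0.980 CPM for the Het livers, also without overlap. Its log2 fold change was -0.90 (unadjusted p 0.0527, edgeR adjusted p 0.694), and it was -0.453 without WT 3 and -0.641 without both Het 2 and Het 3. WT 3 was the highest library for both glypicans. Sdc1, another syndecan, named after its values were known, averaged 316 CPM in WT livers and 311 CPM in Het livers with a log2 fold change of -0.022.

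Among the enzymes that build or trim heparan sulfate, 10 of 16 tested were higher and 6 lower. The groups did not overlap for 2 on the higher side and 1 on the lower, against 13.9% of all genes in either direction. The 2 higher ones, named with their values known, were Xylt2 (log2 fold change 0.178, edgeR adjusted p 0.72) and B4galt7 (0.266, edgeR adjusted p 0.705). Sulf1, a sulfatase that trims the chains outside the cell, stood at 1.15, 1.33 and 2.25 CPM in the WT livers against 0.905, 0.404 and 0.899 CPM for the Het livers. The groups did not overlap, and WT 3 was again the highest library. The log2 fold change was -1.08 (unadjusted p 0.0228, edgeR adjusted p 0.685), and it was -0.746 without WT 3 and -0.785 without both Het 2 and Het 3. Ndst1, which adds sulfate as the chains are made, averaged 143 ± 7.42 CPM over the WT livers and 119 ± 18.9 CPM over the Het livers (SD, n = 3 each, edgeR adjusted p 0.698). Its log2 fold change was -0.269, and it was -0.476 without both Het 2 and Het 3. The summed level of stellate cell and fibroblast markers beside these genes was 169 to 192 CPM in WT and 162 to 182 CPM in Het, and its part in the differences was not tested. By gene 2 of these 8 markers were higher and 6 lower in Het, with log2 fold changes of -0.21 to 0.244. The groups did not overlap for 2 on the higher side and 1 on the lower, against 13.9% of all genes.

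**Figure D4:**
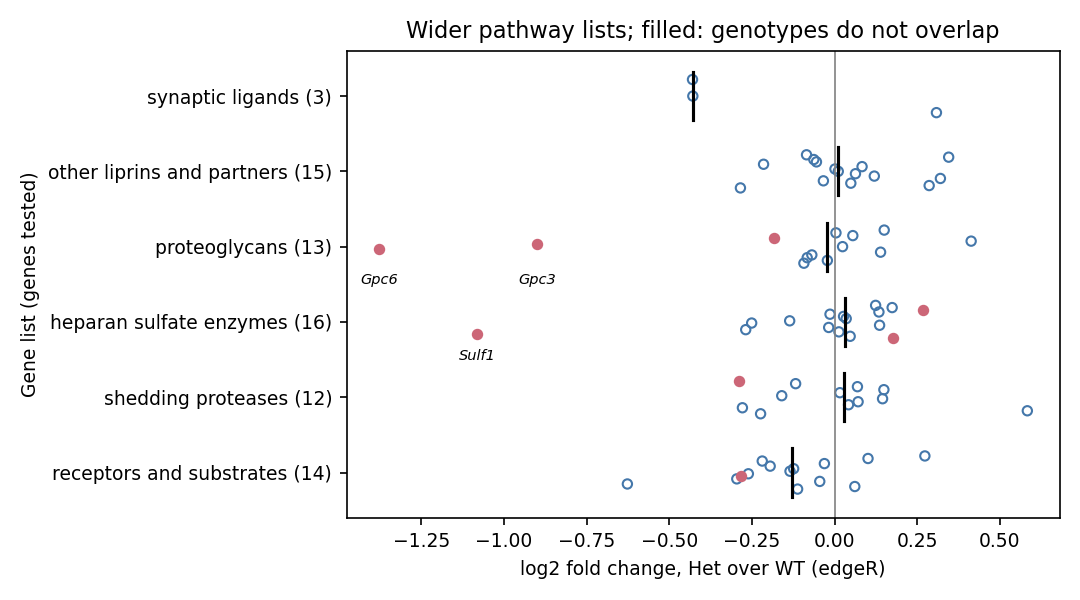
Log2 fold change of Het over WT by edgeR for each tested gene of 6 wider lists (1 point per gene, number tested in brackets), with filled points where the genotypes do not overlap and a black bar at the list median. Most points lie close to 0, and Gpc6 (-1.38), Sulf1 (-1.08) and Gpc3 (-0.90) lie farthest to the left.

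The list on receptor shedding, which holds convertases, sheddases, gamma-secretase subunits and the protease inhibitor Timp3, gave 7 higher and 5 lower of 12 tested. Adam10, a sheddase of many membrane proteins, stood at 29.8, 28.0 and 27.2 CPM in the WT livers against 20.1, 24.2 and 25.2 CPM for the Het livers. The groups did not overlap, and the log2 fold change was -0.29 (95% interval -0.546 to -0.031, unadjusted p 0.0325, edgeR adjusted p 0.693). It ranged from -0.203 without Het 1 to -0.488 without both Het 2 and Het 3. Psenen, a gamma-secretase subunit gene, had 1.32 ± 0.603 and 1.97 ± 0.434 CPM (log2 fold change 0.583, edgeR adjusted p 0.729). Its log2 fold change was 0.367 without WT 1, 0.389 without Het 1, 1.006 without WT 3 and 0.922 without both Het 2 and Het 3. Furin, the convertase that cleaves LAR-type receptors during their maturation, had 207 and 230 CPM (log2 fold change 0.15). It was picked with its values known.

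Of 14 tested receptors and substrates 3 were higher and 11 lower, where 49.25% of all genes tested were higher. Their median was -0.13 on the log2 scale, against -0.004 over all genes, and this difference was not tested. By edgeR 0 of the 14 had an unadjusted p under 0.05, against 7.15% of all genes, and 0 passed DESeq2's adjusted threshold. The groups did not overlap for 1 gene, against 13.9% of all genes in either direction. This was Irs1, lower in Het and named with its values known (log2 fold change -0.283, edgeR adjusted p 0.72). Cdh2, which encodes N-cadherin, averaged 82.5 ± 5.88 CPM over the WT livers and 70.9 ± 6.58 CPM over the Het livers. Insr, the insulin receptor gene, stood at 161, 159 and 147 CPM in the WT livers against 108, 150 and 132 CPM for the Het livers. Its Het 2 value lay within the WT range, and the log2 fold change was -0.26 (95% interval -0.563 to 0.04, edgeR adjusted p 0.712). It was -0.149 without Het 1 and -0.528 without both Het 2 and Het 3, which leaves Het 1 alone against WT. Stat3, also picked with its values known, had 119 and 110 CPM (log2 fold change -0.11, edgeR unadjusted p 0.358).

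The 5 genes whose levels followed Ptprd most closely over the 6 libraries were Cpeb4, Lingo4, Naaladl2, Adgrg2 and Mme, out of 11378 candidates with a mean of at least 1 CPM. Likeness was the root mean square difference of log2 CPM centred on each gene's mean, which was 0.145 for Cpeb4 and 0.165 for Mme, against a median of 0.55 over the candidates and 0.524 for a gene of constant level. Cpeb4, which encodes a regulator of cytoplasmic polyadenylation, stood at 36.6, 42.8 and 50.4 CPM in the WT livers against 19.9, 29.2 and 23.3 CPM for the Het livers. Like Ptprd, it was lowest in Het 1 and highest in Het 2 among the Het libraries. Naaladl2, a gene of the glutamate carboxypeptidase family, stood at 8.90, 9.59 and 10.6 CPM in the WT livers against 5.29, 6.54 and 5.31 CPM for the Het livers. Mme, the neprilysin gene, stood at 84.7, 86.1 and 91.6 CPM in the WT livers against 49.3, 55.6 and 40.9 CPM for the Het livers. Lingo4 and Adgrg2 were low, with means of 2.32 and 2.25 CPM in the WT livers against 1.35 and 1.26 CPM for the Het livers. They were chosen for this pattern, so their levels are a description, and the nearest of the other 9 members stood at 0.438.

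**Figure D5:**
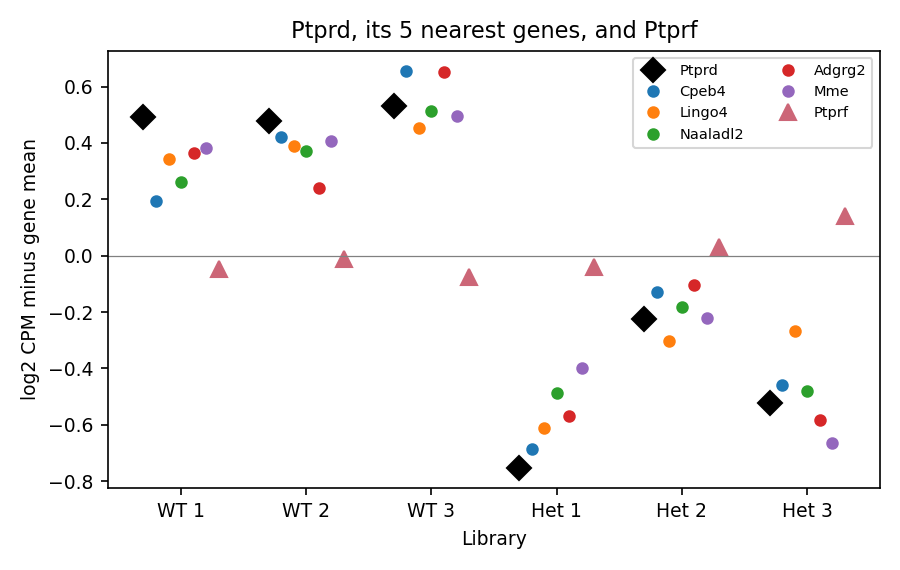
Log2 CPM of each library after subtracting the mean of the gene, for Ptprd (black diamonds), the 5 genes nearest to it (dots) and Ptprf (red triangles), with 1 point per library. Ptprd and the 5 genes lie above 0 in the WT libraries and below 0 in the Het libraries, while Ptprf stays close to 0 in all 6.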

How the data were processed

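Polyadenylated RNA was sequenced by the authors from 3 WT and 3 Het liver libraries made with a strand-specific kit, per the labels' protocols. The submitters' processing notes name build mm10 and, among other tools, DESeq2 1.16.1, HTSeq 0.6.1p1 and STAR 2.5.3a. The sources used here do not state the annotation release or the strand setting of the counting. The deposited counts are raw reads per Ensembl gene, per the file headers. The table's 12 columns of normalized values were not used. A deposited table by the authors gives their log2 fold changes (WT over Het, turned here to Het over WT) and p-values.

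Counts were filtered with filterByExpr (14606 of 25904 genes kept, 99.955% of counts), scaled by TMM and compared across all genes by edgeR 4.0.16 in R 4.3.3 (glmQLFit, glmQLFTest, genotype only, two-sided, Benjamini-Hochberg adjustment, threshold 0.05). CPM refers to effective library size, and standard errors for the 95% intervals come from the quasi-likelihood F statistic. Lengths and sequences were taken from GENCODE M21, whose coordinates matched the table for all 10 genes. The catalytic signature was located as histidine and cysteine followed, after any 5 residues, by arginine. Alternatives were DESeq2 1.42.0, limma-voom (limma 3.58.1), 2 other scalings, 2 other filters, a replicate block, leaving out each library, and leaving out Het 2 and Het 3. On simulated counts edgeR called 0 of 50 genes changed 1.25-fold, 4 of 50 at 1.5-fold and 30 of 50 at 2-fold, with 6 calls among unchanged genes of 14454. DESeq2 called 3, 15 and 37 of 50 on the same counts, with 27 calls among unchanged genes. The simulated libraries varied independently of each other, without the difference of Het 2 and Het 3 from the other libraries in clock genes. Named genes were the 10 members, the 2 smallest unadjusted p values per wider list and the 5 genes nearest to Ptprd, leaving out predicted Gm and Rik names. Members and lists were chosen with earlier results of these data known. Of the 7 wider lists, 1 enters the totals and is not reported here by gene.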

Additional observations from a re-analysis of the deposited data

How the results depend on the processing

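Under all 14 other settings the log2 fold change of Ptprd stayed negative, from -1.25 without Het 2 and Het 3 to -0.87 without Het 1. It passed the adjusted threshold with DESeq2 (-0.98, adjusted p 2.01e-06) and with no filter on low counts (-0.98, adjusted p 5.88e-04), and with each library left out it ranged from -1.13 to -0.87. Genes called numbered 0 with edgeR, 66 with DESeq2, 73 with no filter and 0 to 1 with a library left out, and no member other than Ptprd was called in any setting. Genes of the wider lists at an unadjusted p under 0.05 numbered 3, and 5 with no filter, 8 without Het 2 and Het 3 and 3 to 7 with a library left out. The share of all tested genes under that p was 7.15%, 5.941% with no filter and 4.619% to 9.596% with a library left out. That share also rose without Het 2 and Het 3, so the higher count there was not read as particular to the lists. The summed CPM of the 3 phosphatases had a log2 ratio of Het over WT of -0.259, and of -0.385 without Het 2 and Het 3. The ratio was -0.085 per exonic kb and -0.20 per transcript kb, a scale added after seeing the data. Small differences changed sign, namely Ppfibp2 (-0.003 without WT 3 and -0.065 without Het 1), Trio (0.006 without Het 1), Ptprs (0.000 without Het 3 and -0.035 without Het 2 and Het 3), and, without Het 2 and Het 3, Lrfn4 (-0.231) and Mtss1 (-0.194). With a library left out, Ptprs ranged from 0.000 to 0.132, Ppfibp2 from -0.065 to 0.237 and Trio from -0.241 to 0.006. The cause of these shifts was not tested. With Het 2 and Het 3 left out, the spread of Het 1 is taken to be that of WT.

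Same-numbered WT and Het libraries had correlations of their deviations of -0.068, 0.116 and 0.152, so the numbers were not taken to pair the samples. With the replicate block the log2 fold change of Ptprd was -1.001 (adjusted p 0.329), 0 genes were called, and no call on a member changed. Of the 3 WT libraries, 1 correlated best with the Het library of its own number. Precision limits the members other than Ptprd to differences beyond their intervals, and changes under 1.5-fold were rarely called in simulated data of this size. Those data lacked the difference of Het 2 and Het 3 in clock genes, so their call rates may not hold for these libraries.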
